A study of Saccharomyces cerevisiae with 6 samples.

Results

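The genes described here encode the enzymes by which budding yeast (Saccharomyces cerevisiae) fixes ammonium into glutamate and glutamine and makes proline from glutamate. They are 8 genes chosen by name, GDH1, GDH2, GDH3, GLT1, GLN1, PRO1, PRO2 and PRO3, of 5449 S. cerevisiae genes measured on the arrays. Each of the 8 was read by 1 probe set. All 8 lay above the background level on all 6 arrays, while 97.1% to 97.9% of all genes did so on any 1 array. The names were picked with earlier results of these arrays known. Transcripts were measured in chemostats, continuous cultures whose growth rate is set by the rate of supply, here aerobic and limited for glucose in YNB medium, held at pH 5 and 30 °C with a dilution rate of 0.10 per hour. The first group is gcn4-delta, an S288C MAT a strain that lacks GCN4, in medium with 0.1 mM 3AT (3 arrays). The second is the wild type S288C MAT a strain at 10 mM 3AT (3 arrays). 3AT, aminotriazole, inhibits the HIS3 enzyme and so starves cells of histidine, and Gcn4 is the transcription factor that activates genes of amino acid synthesis in starved cells. The strain and the 3AT dose differ together, so the effect of the deletion and that of the dose cannot be told apart. The labels do not say whether replicates were separate chemostats or whether gcn4-delta was 1 clone, so the p-values reflect only how far these samples vary, and that variation may be technical.

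Yeast makes glutamate from ammonium by 2 routes. In the first, the NADPH-dependent glutamate dehydrogenases Gdh1 and Gdh3 join ammonium to 2-oxoglutarate, an intermediate of the citric acid cycle. In the other, glutamine synthetase (Gln1) adds ammonium to glutamate, and glutamate synthase (Glt1) passes the amide of that glutamine to 2-oxoglutarate with NADH, so that glutamate is regained. Gdh2, which uses NAD, runs the other way and releases ammonium from glutamate. Glutamate is also the start of proline: Pro1 phosphorylates it, Pro2 reduces the phosphate to the semialdehyde, which closes to a ring by itself, and Pro3 reduces that ring to proline.

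The arrays were alike in scale. Their median intensity lay between 664.1 and 711.8 (RMA intensity on a linear scale), and Pearson's r across genes, which are not independent replicates, was 0.987 to 0.993 among gcn4-delta arrays, 0.968 to 0.989 among wild-type arrays and 0.928 to 0.970 across the groups. GCN4 itself read 14.5, 213 and 11.4 in gcn4-delta replicates 1, 2 and 3, of which only replicate 2 was above background, against 7312, 7309 and 7248 in the wild type. Wild type replicate 1 stood farthest from the other arrays of its group, with a median absolute log2 deviation of 0.19 over all genes, against 0.079 to 0.14 for the other 5 arrays. Markers of MAT a cells were present on all arrays, 6 of 6 above background, with summed intensities of 11461 to 12136 in gcn4-delta and 8111 to 12097 in the wild type, and none passed the test, though 2 did without wild type replicate 3. All 4 MAT alpha markers were also above background on all arrays, so this count does not tell the marker sets apart. Their sums were 693.7 to 726.6 in gcn4-delta and 604.5 to 934.3 in the wild type. For 8 markers of sporulating diploids the sums were 1019 to 1081 in gcn4-delta and 836.2 to 894.8 in the wild type. Of these 8, 1 was lower and 2 were higher in gcn4-delta (limma adjusted p under 0.05), against 6% and 5.34% of all genes. The counts were 0 lower and 1 higher without any one gcn4-delta array, and 1 lower and 3 higher without wild type replicate 1. Of the 8, 7 were above background on all arrays and SPS2 was so on none. SPR3, a sporulation septin, was higher in gcn4-delta by 2.10 on the log2 scale. The part of other cell types in the results was not tested.

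Of the 8 genes, 3 fell in gcn4-delta, 0 rose and 5 did not pass the test (limma), though 2 of these 5, GDH1 and GDH3, read higher with an unadjusted p under 0.05, as did 16.4% of all genes. The 3 were GLT1 and GLN1, the enzymes of the glutamine and glutamate synthase route, and PRO2, the reductase of proline synthesis. Over all genes measured, 11.3% passed in either direction, 6% lower and 5.34% higher (limma on log2 intensities with Benjamini-Hochberg adjustment at 0.05). The median log2 change of the 8 was -0.089, against 0.035 over all genes, and the median size of the change was 0.54 against 0.18. On 6 of the 8 genes the groups did not overlap, which was so for 35.7% of all genes.

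**Figure D1:**
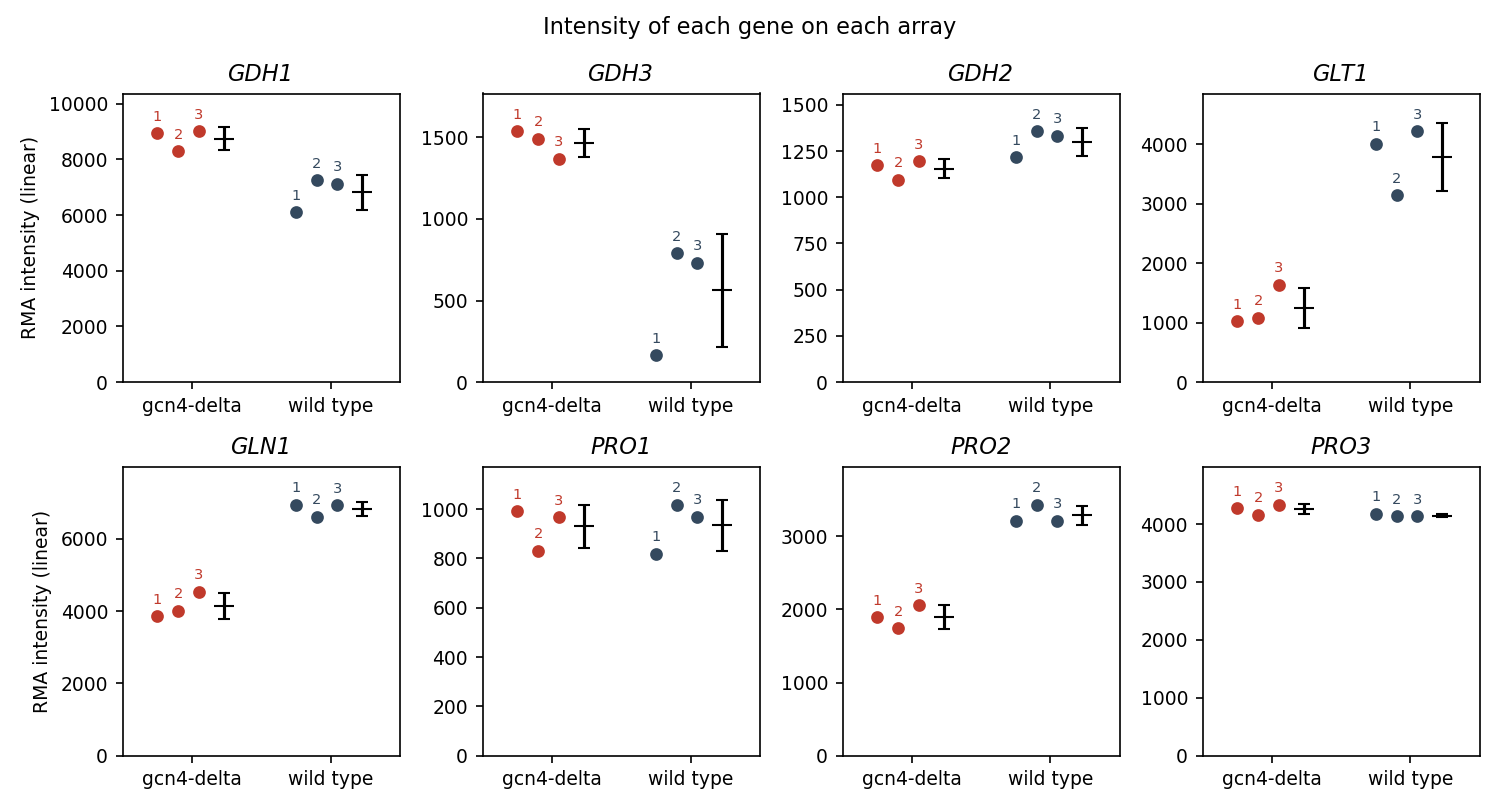
Intensity (RMA, linear scale from 0) of each gene on each array, with gcn4-delta left of the wild type, numbers giving the replicate, and a bar for the mean and SD of 3 arrays. GLT1, GLN1, PRO2 and, by a narrow gap, GDH2 lie lower on all gcn4-delta arrays, GDH1 and GDH3 lie higher on all of them, and GDH3 is far lower in wild type replicate 1 than elsewhere.

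GLT1 (YDL171C), the glutamate synthase gene, had intensities of 1026, 1087 and 1638 in gcn4-delta replicates 1, 2 and 3, against 4008, 3144 and 4221 in wild type replicates 1, 2 and 3. The highest gcn4-delta array was thus well under the lowest wild-type array. The means were 1250 ± 337 in gcn4-delta and 3791 ± 570 in the wild type (SD, n = 3 each). The log2 change was -1.62 ± 0.20 (SE, limma adjusted p = 0.00437), with a 95% interval of -2.11 to -1.13. GLT1 ranked 53 from the largest fall among the 5449 genes. Within gcn4-delta, replicate 3 was apart from the other replicates, 0.63 higher on the log2 scale than their mean.

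GLN1 (YPR035W), the glutamine synthetase gene, had intensities of 3867, 4005 and 4538 in gcn4-delta, against 6950, 6609 and 6936 in the wild type. The groups did not overlap, and gcn4-delta replicate 3 was again the highest of its group. The log2 change was -0.73 ± 0.092 (SE, limma adjusted p = 0.0044), with a 95% interval of -0.95 to -0.51. That places GLN1 at rank 213 from the largest fall. On both genes wild type replicate 2 was the lowest wild-type array and gcn4-delta replicate 3 the highest gcn4-delta array.

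None of the 3 dehydrogenase genes passed the test. GDH1 and GDH3 read higher in gcn4-delta, and GDH2 read slightly lower. GDH1 (YOR375C), the main ammonium-fixing dehydrogenase, had intensities of 8936, 8281 and 9010 in gcn4-delta, against 6096, 7240 and 7123 in the wild type. All gcn4-delta arrays were above all wild-type arrays, and wild type replicate 1 was the lowest. The means were 8742 ± 401 in gcn4-delta and 6820 ± 630 in the wild type (SD, n = 3 each). The log2 change was 0.36 ± 0.099 (SE), its 95% interval was 0.13 to 0.60, and it did not pass over all genes (limma adjusted p = 0.0646, unadjusted p = 0.00856). It passed in limma with trend and robust variances (adjusted p = 0.0199) and with array weights (adjusted p = 0.0291), and its adjusted p was 0.0777 to 0.240 when any 1 array was left out.

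GDH3 (YAL062W), whose product is the near-identical isoenzyme of Gdh1 and is known from cells on non-fermentable carbon, had intensities of 1538, 1490 and 1369 in gcn4-delta. In the wild type it read 164, 790.5 and 732.9 in replicates 1, 2 and 3. The gcn4-delta arrays lay close together and above every wild-type array, while wild type replicate 1 stood apart from replicates 2 and 3, with a log2 deviation of -2.21 from their mean. The log2 change was 1.68 ± 0.57 (SE), with a 95% interval of 0.32 to 3.04, and did not pass (limma adjusted p = 0.112). This was the change of rank 32 from the largest rise among all genes. Without wild type replicate 1 the change was smaller, 0.94, and passed (adjusted p = 0.00212). It passed with array weights too, at 1.23 (adjusted p = 0.0397), while omission of any one of the other 5 arrays left it unpassed, with adjusted p up to 0.283.

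Other genes also read low in wild type replicate 1. Over all 5449 genes, 119 (2.18%) were lower there than in the other wild-type replicates by over 1 on the log2 scale. The same count was 77 (1.41%) for wild type replicate 2 and 13 (0.239%) for wild type replicate 3. Among 85 genes, the 8 and those of the lists described below, 5 (5.88%) were lower by that much, GDH3 by the most. The other 4 were IDP2, the cytosolic isocitrate dehydrogenase, SOL4 and GND2 of the pentose phosphate pathway, and GAD1, glutamate decarboxylase, at -1.34, -1.24, -1.14 and -1.13. Whether these deviations share an origin was not tested. PRO1, GDH1, GDH2 and PRO2 deviated by -0.28, -0.24, -0.15 and -0.049 in the same direction. PRO3, GLN1 and GLT1 deviated by 0.014, 0.038 and 0.14 in the opposite one. Gdh1 and Gdh3 are near-identical, so a probe set of either gene could also read the other. Both probe set names end in plain _at, without the suffix for sets known to be shared, and cross-hybridization was not tested, since probe sequences were not used here.

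GDH2 (YDL215C), the dehydrogenase that breaks glutamate down, had intensities of 1173, 1096 and 1196 in gcn4-delta, against 1215, 1357 and 1331 in the wild type. The gap between the groups was narrow, since the highest gcn4-delta array lay just under the lowest wild-type array. The log2 change of -0.17 ± 0.087 (SE) did not pass (limma adjusted p = 0.242), and its 95% interval was -0.38 to 0.034.

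**Figure D2:**
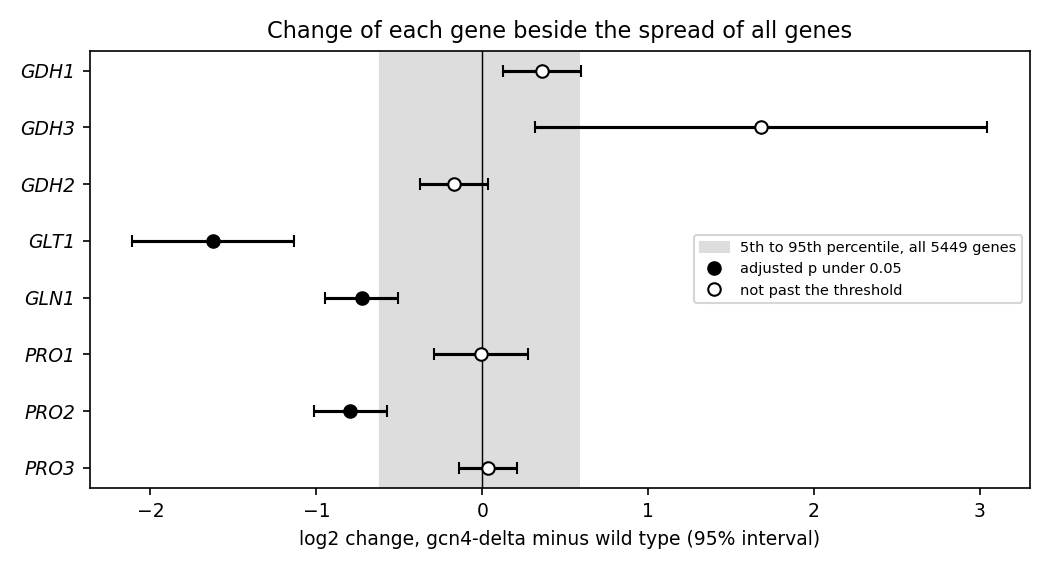
Log2 change of each gene, gcn4-delta minus wild type, with its 95% interval from limma (6 arrays), filled where the adjusted p was under 0.05. The grey band is the 5th to 95th percentile of the change over all 5449 genes, -0.62 to 0.59, and GLT1, GLN1, PRO2 and GDH3 have their point outside it.

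To contrast the dehydrogenase genes with GLT1 and GLN1, the ratio of each GDH gene to each of these was taken within an array, which removes what scales a whole array. Such a ratio shows unequal change between genes and says nothing of which transcript was more abundant. Relative to the wild-type mean, the log2 ratio of GDH1 to GLT1 was 2.27, 2.08 and 1.61 on the gcn4-delta arrays, against -0.25, 0.35 and -0.10 on the wild-type arrays. The difference of 1.98 is a 3.95-fold higher ratio in gcn4-delta. For GDH1 to GLN1 the values were 1.21, 1.05 and 1.00 in gcn4-delta, against -0.18, 0.14 and 0.045 in the wild type. That difference, 1.09 or 2.13-fold, had little spread, with an SD of 0.11 in gcn4-delta and 0.16 in the wild type.

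For GDH2, which itself read slightly lower in gcn4-delta, the ratio was still higher there, by 1.45 against GLT1 and by 0.56 against GLN1. The difference for GDH3 was the largest of the 6 ratios against GLT1, 3.30, and it was 2.41 against GLN1, with a wide spread in the wild type (SD 1.38 and 1.30) that came from replicate 1. Without that array the differences for GDH3 were 2.52 and 1.66. In all 6 ratios every gcn4-delta array was above every wild-type array. GLT1 and GLN1, by which the GDH genes were divided, were themselves lower on every gcn4-delta array (log2 change -1.62 and -0.73). A gene that changed little could thus separate in the same way, and the share of all genes that did so was not counted. The exact two-sided permutation test gave p = 0.1 for each ratio, also after adjustment over the 6. This is the smallest p that 3 arrays against 3 allow, so none could pass. When any 1 array was left out, the difference stayed positive, from 0.49 for GDH2 to GLN1 up to 3.83 for GDH3 to GLT1.

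**Figure D3:**
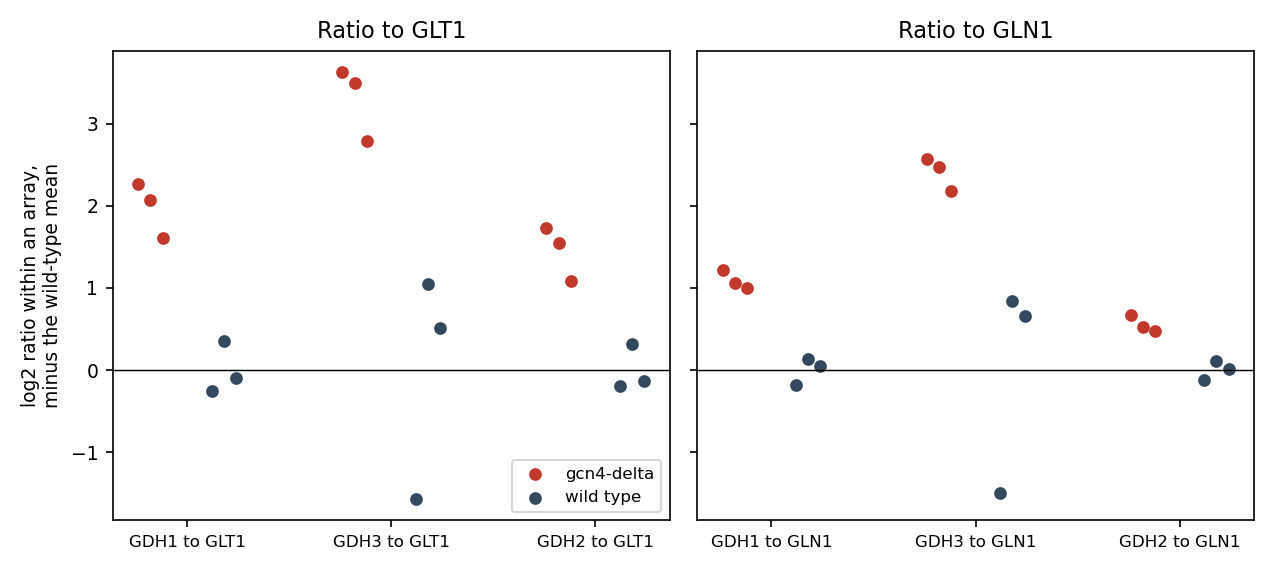
Log2 ratio of each glutamate dehydrogenase gene to GLT1 (left) and to GLN1 (right) within an array, minus the mean of the wild-type arrays, 1 point for each of 3 gcn4-delta and 3 wild-type arrays, in the order of the replicates. All gcn4-delta points lie above all wild-type points in each ratio, and the low wild-type point of GDH3 is replicate 1.

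The proline genes did not move together. PRO2 (YOR323C), the gamma-glutamyl phosphate reductase, had intensities of 1893, 1740 and 2057 in gcn4-delta, against 3211, 3433 and 3212 in the wild type. The groups were far apart beside their spread. The means were 1896 ± 158 in gcn4-delta and 3285 ± 128 in the wild type (SD, n = 3 each), and the log2 change was -0.80 ± 0.093 (SE, limma adjusted p = 0.00307) with a 95% interval of -1.02 to -0.57.

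PRO1 (YDR300C), the gamma-glutamyl kinase at the start of the pathway, had intensities of 991.4, 830.5 and 966.3 in gcn4-delta, against 819, 1018 and 967.9 in the wild type. The groups overlapped throughout. Its log2 change was -0.0067 ± 0.12 (SE, limma adjusted p = 0.977), with an interval of -0.29 to 0.28, and the sign turned to 0.0052 when the arrays were quantile normalized again and to 0.0020 when they were median centred. PRO3 (YER023W), the last enzyme of the pathway, read 4274, 4158 and 4335 in gcn4-delta, against 4174, 4131 and 4136 in the wild type. It was the steadiest of the 8 genes, with coefficients of variation of 2.12% in gcn4-delta and 0.563% in the wild type. The log2 change of PRO3 was 0.037 ± 0.074 (SE, limma adjusted p = 0.770) with an interval of -0.14 to 0.21, and a change of the size seen for PRO2 lies outside the intervals of PRO1 and PRO3.

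The calls of GLT1, GLN1 and PRO2 did not depend on a single array. With each of the 6 arrays left out in turn, the log2 change was -1.83 to -1.50 for GLT1, -0.80 to -0.68 for GLN1 and -0.86 to -0.73 for PRO2, and the largest adjusted p was 0.0257, 0.0340 and 0.0250.

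The breakdown of proline and arginine, which returns both to glutamate, had all 5 listed genes past the test, against 11.3% of all genes. Of the 5, 4 were lower and 1 higher in gcn4-delta (median log2 change -1.11). PUT1, proline oxidase, read 477.8, 494.5 and 453.1 in gcn4-delta, against 2514, 1746 and 1517 in the wild type, a log2 change of -1.99. CAR1, arginase, was at -1.55 and CAR2, ornithine transaminase, at -1.11. PUT2, the dehydrogenase that turns the proline ring intermediate into glutamate and thus opposes the step of PRO2, was at -0.79 (adjusted p = 0.0172). It falls outside the rule for named genes and was picked after its values were seen. PUT4, the proline permease, was the gene that rose, with 714.9, 677 and 503.2 in gcn4-delta against 137.8, 224.2 and 243.4 in the wild type, a change of 1.67. The count of lower genes was 2 without gcn4-delta replicate 1, where CAR2 and PUT2 did not pass. Their adjusted p was then 0.111 and 0.0803. CAR2 also failed to pass without gcn4-delta replicate 3 (adjusted p = 0.0919) and without wild type replicate 3 (adjusted p = 0.0589), and PUT2 without gcn4-delta replicate 2 (adjusted p = 0.0733).

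Enzymes that use glutamine as an amide donor had 7 of 15 genes lower in gcn4-delta, 0 higher and 8 that did not pass (median -0.24). The smallest count of lower genes with an array left out was 5, without gcn4-delta replicate 1 or 2. Over all genes, 6% were lower and 5.34% higher. The largest falls were those of SNO1 of vitamin B6 synthesis at -4.86, HIS7 of histidine synthesis at -1.74, ASN1, an asparagine synthetase, at -1.60 and TRP3 of tryptophan synthesis at -1.52. TRP3 read 846, 846.5 and 910.9 in gcn4-delta, against 2476, 2453 and 2520 in the wild type. Transaminases that take up or give off the amino group of glutamate, listed with the GABA shunt, had 9 of 14 genes lower and 0 higher (median -0.67). Their smallest count of lower genes was 7, in the same omissions. ARO9 and ARO8, the aromatic transaminases, were at -4.41 and -1.35, HIS5, histidinol phosphate transaminase, at -1.88 and ARG8, acetylornithine transaminase, at -1.08. ARG8 did not pass in the 4 omissions other than those of gcn4-delta replicate 2 and wild type replicate 2 (adjusted p up to 0.118). These lists hold genes of histidine, arginine and aromatic synthesis that earlier results of these arrays had already shown to be lower, so they add no independent direction.

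The carbon and the reducing power for glutamate synthesis come from other pathways, where 1 gene of each list passed the test. Over all genes 11.3% passed. Of 12 genes that make or use 2-oxoglutarate, 1 was lower and 0 higher (8.33% called, median -0.024). The gene lower was CIT3, a mitochondrial citrate synthase, with 78.3, 74.8 and 72.6 in gcn4-delta against 102, 112 and 161 in the wild type, a change of -0.71 (adjusted p = 0.0440). It did not pass when wild type replicate 2 or a gcn4-delta array was omitted (adjusted p up to 0.135). Of 6 genes that supply NADPH, the cofactor of Gdh1 and Gdh3, 1 was higher and 0 lower (16.7% called, median 0.26). At an unadjusted limma p under 0.05, 3 of the 6 were higher, against 16.4% of all genes. The summed intensities of the 6 were 20227.5 to 21459.9 in gcn4-delta and 15694.3 to 18341.1 in the wild type. GND2, 6-phosphogluconate dehydrogenase, read 1527, 1651 and 1079 in gcn4-delta, against 249.6, 529.4 and 575.2 in the wild type. Its change of 1.72 (adjusted p = 0.0219) lost its call without gcn4-delta replicate 1 or 2 (adjusted p up to 0.0914).

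Among the ammonium permeases 1 of 3 fell in gcn4-delta and 0 rose, where 6% of all genes were lower and 5.34% higher. MEP3 read 568.7, 602.9 and 686.4 in gcn4-delta, against 1497, 985.5 and 1432 in the wild type, a change of -1.06 (adjusted p = 0.0127) whose call was lost without gcn4-delta replicate 1 or 2 (adjusted p of 0.0607 and 0.0591). Of 18 regulators of nitrogen and glutamate genes, 5 were lower, 1 higher and 12 did not pass (median -0.16), beside the same shares over all genes. GLN3, the GATA activator of genes for nitrogen use, among them GLN1, was at 474.5, 455.6 and 471.8 in gcn4-delta against 833.5, 869.1 and 876.7 in the wild type, a change of -0.88. RTG3, an activator of the retrograde response that supplies 2-oxoglutarate, was at -0.76 and PUT3, the activator of PUT1 and PUT2, at -0.71. DAL80, a GATA repressor, was the gene higher, at 0.59, and passed in 1 of the 6 omissions, that of wild type replicate 3 (adjusted p up to 0.119 in the others). Omitting wild type replicate 2, or any gcn4-delta array, left 3 lower regulators. Genes that use glutamate for glutathione and folate had 0 of 4 past the limma test and 2 of 4 at an unadjusted p under 0.05, which 28.6% of all genes reached. GSH2, glutathione synthetase, had the largest change there at -0.39 (adjusted p = 0.132).

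**Figure D4:**
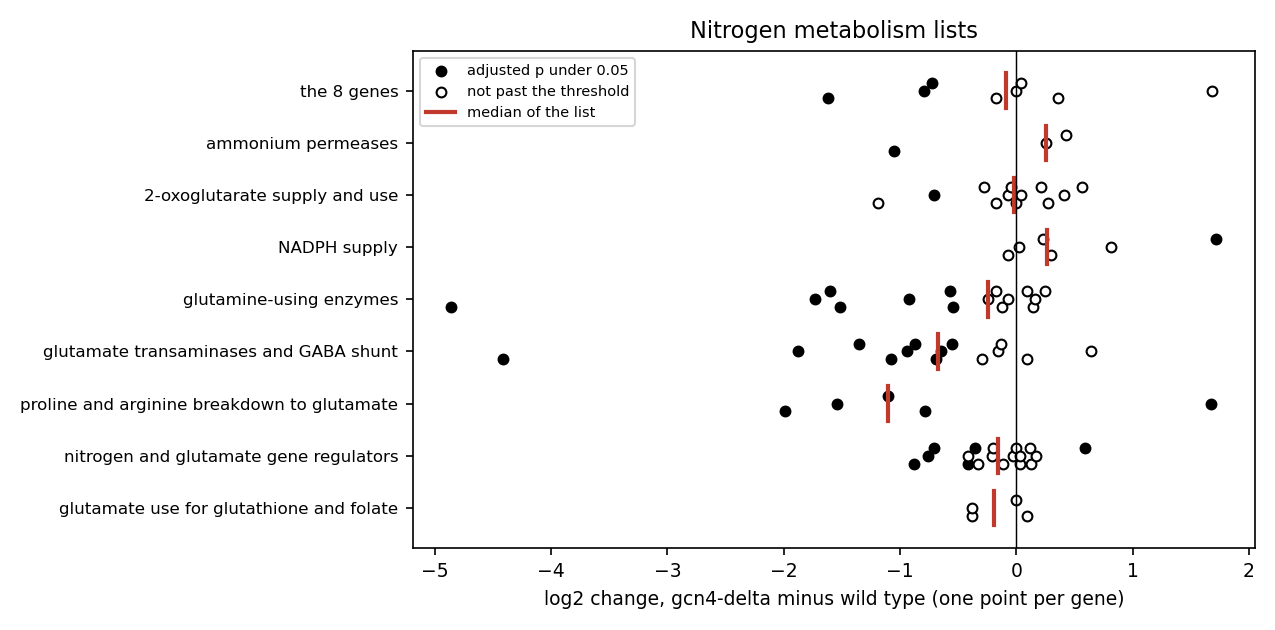
Log2 change, gcn4-delta minus wild type, of the 8 genes and of the lists of related genes, 1 point per gene, filled where the limma adjusted p was under 0.05, with the median of each list as a red line. Most filled points lie left of 0, and those of the transaminases, the glutamine-using enzymes and the proline and arginine breakdown genes include larger falls than that of GLT1.

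As a description of pattern, the 5 genes whose log2 intensities correlated best with GLT1 over the 6 arrays, among 5448 others, were AUS1, LIP5, YDL086W, BNA3 and THR1, with Pearson's r of 0.994 to 0.997. These points share their arrays and fall into 2 groups, so r mostly follows the difference between the groups. Of these, 4 were lower in gcn4-delta, with THR1, homoserine kinase, at -0.84 and LIP5, lipoic acid synthase, at -0.74, while YDL086W did not pass at -0.19. Those most like GDH1 were EMI2, ARB1, GNA1, YME1 and SWH1, with r of 0.994 to 0.996. Their changes ran from 0.30 for ARB1, a ribosome assembly ATPase, to 0.69 for EMI2, and EMI2 and SWH1 passed the test.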

How the data were processed

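Transcripts of 6 chemostat samples, 3 gcn4-delta and 3 wild type, were measured on 1-colour oligonucleotide arrays. The authors deposited 1 intensity per probe set and array on a linear scale, computed by RMA, per the submitters' processing notes (version not given in the sources used here), and whether all arrays were normalized together is not stated. From these intensities, log2 values were taken with no further normalization. The platform annotation gave a single gene name for 7244 of 10928 probe sets, several names for 1 and no name for 3683. Names of 5498 sets matched S. cerevisiae genes in a RefSeq gene table, giving 5449 genes, 47 with several sets, of which the brightest by mean was used. The list name AMU1 was matched through its current symbol PAR32. The 95th percentile of the 1746 named sets of other genes on an array was taken as its background level, between 17.9 and 25.2. The number of arrays, 3 in each group, limits the precision.

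Groups were compared by lmFit and eBayes of limma 3.58.1 (R 4.3.3) over all 5498 sets, Benjamini-Hochberg adjusted p under 0.05, checked on simulated data. Within-array ratios had an exact two-sided permutation test. Named are all 8 genes and GCN4, up to 4 called genes of each list with the largest change (where none passed, the gene with the largest), and the 5 genes most correlated with GLT1 and with GDH1. Outside this rule, and picked by their values, are PUT2, IDP1, IDP2, SOL4, GAD1, SPS2, AAT1, AAT2 and ALT1. The neighbours on the chromosome are also outside it. The genes and lists were chosen with earlier results of these data known. The alternatives tried were a block for the replicate number, omission of each array, other normalizations, filters on dim probe sets, variance models, probe set summaries and a threshold of 0.01. Sequences, and a planned description of promoter motifs, were not analysed here.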

Additional observations from a re-analysis of the deposited data

How the results depend on the processing

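The 3 lower genes GLT1, GLN1 and PRO2 were 3 under all 15 alternatives. Some of these alternatives could hardly alter that count. Each gene had 1 probe set, the filters on dim probe sets dropped none of the 3, and their limma adjusted p was already under 0.01. The count of higher genes, 0, was 1 with trend and robust variances, 2 with array weights and 0 to 1 with an array left out. The log2 change of GDH1 was 0.36 with trend and robust variances (limma adjusted p = 0.0199) and 0.32 with array weights (limma adjusted p = 0.0291), and 0.28 to 0.41 with an array left out. GDH3 was at 1.23 with array weights (limma adjusted p = 0.0397) and at 0.94 to 2.08 with an array left out, the lowest without wild type replicate 1. PRO1, at -0.0067, was at 0.0052 after quantile normalization again, at 0.0020 after median centring and at -0.099 to 0.072 with an array left out. The cause of these differences was not tested. Over all genes, 618 passed, against 1095 with array weights, 224 at the threshold of 0.01 and 220 to 713 with an array left out, where fewer arrays were tested.

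With the replicate number as a block (replicate block), 210 genes passed, and of the 8 genes 3 were lower and 0 higher. The numbers did not pair the samples: deviations from the group means of same-numbered arrays correlated at -0.34, -0.39 and -0.23 over 5449 genes. For arrays with different numbers the correlation was -0.12 to 0.56, highest for gcn4-delta replicate 1 with wild type replicate 2. What such arrays share was not tested. The block changed no call among the 8. In the lists it left 5 of 9 lower transaminase genes (AAT1, AAT2, ALT1 and ARG8 did not pass), 5 of 7 glutamine-using enzymes, 2 of 4 lower breakdown genes (CAR2 and PUT2 did not pass) and 3 of 5 lower regulators. CIT3, GND2, DAL80, IME1 and NDT80 did not pass with it either. All 8 genes were above background on all 6 arrays, but so were 97.1% to 97.9% of all genes on any 1 array. That count therefore cannot show that dim signal is no limit. GDH3 read 164 in wild type replicate 1, where the lower quartile over all genes was 367. Without the lowest 25% of probe sets, still 3 of the 8 were lower and 0 higher. These results are also limited by the 3 arrays in each group, the spread of GDH3 in the wild type and the strain and 3AT dose that differ together.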

Other observations

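Of 16 nearest measured genes on either side of the 8 on the chromosome, a set looked at after the data were seen, 2 were lower and 1 higher in gcn4-delta, against 11.3% called over all genes. UGA3, the activator of the GABA genes and the nearest measured gene on one side of GLT1, read 265, 357.9 and 264.3 in gcn4-delta, against 904.3, 595.9 and 895.6 in the wild type, a log2 change of -1.42 (limma adjusted p = 0.00659). The nearest measured gene on the other side of GLT1, PAR32, had a log2 change of -0.12 and did not pass (limma adjusted p = 0.406). YAT2, a carnitine acetyltransferase gene beside PRO3, was at -0.93 (limma adjusted p = 0.0396). PRR2, a kinase gene beside GDH2, was at 1.35 (limma adjusted p = 0.000804).

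IDP1, the mitochondrial isocitrate dehydrogenase that makes 2-oxoglutarate, was picked after its values were seen. It read 1332, 3733 and 1600 in gcn4-delta, against 6284, 2440 and 6201 in the wild type. Replicate 2 stood apart in each group, high in gcn4-delta and low in the wild type, so that the groups overlapped. Its log2 change of -1.19 did not pass (limma adjusted p = 0.174).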
